A study of Mus musculus with 4 samples.

Results

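The members of the TGF-β and IL-10 pathways followed here in leukocytes of mouse pancreatic tumours were 9 of the 32285 genes in the counts matrix. They were taken by symbol: Tgfb1, Itgb8, Tgfbr1, Tgfbr2, Smad7, Itgae, Tgfbi, Il10 and Il10ra. The cells were live CD45+ cells sorted from subcutaneous tumours grown from KPC cells, a mouse pancreatic tumour line, in male C57BL/6 mice of 8 to 10 weeks. Mice were untreated, or received a STING agonist, an LTbR agonist, or the STING and LTbR agonist together (here the combination), with 1 library for each. Per the methods, the STING agonist was ADU-S100, a synthetic cyclic dinucleotide, given once into the tumour at 2 µg, and the LTbR agonist was 100 µg of the antibody 4H8, which activates the lymphotoxin-β receptor, given 4 times until day 10. Tumours were taken on day 14, and 10 tumours were pooled per group. The animals therefore cannot be told apart, and no test of a treatment was possible. Intervals of levels and of shares of cells below are exact 95% intervals. An interval of a ratio combines the bounds of such intervals and is not itself an exact 95% interval. All cover counting error only, and those of levels and ratios count the UMIs of a cell as independent.

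TGF-β is made as a latent complex that stays inactive until it is released. The integrin αvβ8, of which Itgb8 encodes one chain, binds an Arg-Gly-Asp (RGD) motif in the latent part and is a main activator on regulatory T cells. The active ligand signals through the receptor kinases TGFBR2 and TGFBR1 to SMAD proteins, and SMAD7 is an induced inhibitor of that signal. IL-10 is a second inhibitory cytokine of regulatory T cells, and its receptor chain IL-10RA lets macrophages and other leukocytes respond to it.

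The RGD motif is shown because it is where the product of Itgb8 meets the product of Tgfb1. Capitals mark the codons for Arg-Gly-Asp, starting at codon 244 of the 390 of the coding sequence, on the plus strand of GRCm38 (GENCODE M21 transcript). The first base lies at the end of exon 4 and the other 44 in exon 5, at chr7:25697125-25697168.

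Tgfb1, RGD codons: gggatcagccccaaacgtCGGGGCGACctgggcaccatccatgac

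The promoters of Itgb8 and Tgfbi are shown because these members were the most sharply held to one class of cells among those with an entry in the RefSeq promoter table (GRCm38.p6), as given below. Each runs from 250 bases before to 50 after the RefSeq start. GENCODE places the start of Itgb8 further upstream, so the Itgb8 window lies wholly inside its GENCODE span, chr12:119158022-119238802. Capitals mark CAGAC or its reverse complement GTCTG, the core letters of a SMAD-binding element, searched on both strands. The Itgb8 window, on the minus strand at chr12:119238227-119238526, holds 1 match, and the Tgfbi window, on the plus strand at chr13:56609336-56609635, holds 2. These letters occur in 49.6% of all 32851 promoters of that table, and a match is a description of the window, not a site.

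Itgb8: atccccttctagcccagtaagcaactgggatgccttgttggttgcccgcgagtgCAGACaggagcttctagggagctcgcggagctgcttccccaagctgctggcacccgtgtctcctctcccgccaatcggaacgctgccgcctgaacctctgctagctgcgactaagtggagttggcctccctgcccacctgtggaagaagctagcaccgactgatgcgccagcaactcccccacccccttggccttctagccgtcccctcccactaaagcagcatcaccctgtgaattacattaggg
Tgfbi: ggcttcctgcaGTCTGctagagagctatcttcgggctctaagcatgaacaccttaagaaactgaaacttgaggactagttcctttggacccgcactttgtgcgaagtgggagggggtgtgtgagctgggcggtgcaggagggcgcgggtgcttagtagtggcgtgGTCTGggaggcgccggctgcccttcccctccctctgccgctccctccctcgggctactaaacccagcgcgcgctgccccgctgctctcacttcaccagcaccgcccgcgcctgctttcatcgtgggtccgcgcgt

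The libraries held 6783, 3748, 7147 and 5333 cells after the quality limits (untreated, STING agonist, LTbR agonist and combination, the order kept throughout), with 32529174 to 60770280 unique molecular identifiers (UMIs) before them. Library pairs shared 33 to 61 barcodes. Classes were rebuilt from RNA without using the 9 genes, and are named "-like" from markers. Levels below are CPM, the UMIs of a gene scaled to a class total of 1e6 UMIs, so they are shares of the RNA of a class. Regulatory T-like cells numbered 165, 100, 342 and 165, and Foxp3, the factor that defines them, stood at 598 to 754 CPM in them and at 1.63 to 5.57 CPM in other T-like cells. The class carried 31.3 to 52.9 CPM of 11 summed macrophage markers and 217 to 286 CPM of 10 summed neutrophil markers. Its Cd8a and Cd8b1 summed to 151, 43.2, 121 and 182 CPM, against 952 to 1455 CPM in other T-like cells. Other T-like cells numbered 1268 to 1839, NK-like cells 254 to 696, macrophage- or monocyte-like cells 1417 to 2988, dendritic-like cells 153 to 522 and neutrophil-like cells 69 to 376. Neutrophil-like cells of the untreated, STING agonist and LTbR agonist libraries carried 261 to 403 CPM of summed T-cell markers against 49.1 CPM in the combination library. NK-like cells of the LTbR agonist library carried 447 CPM of summed neutrophil markers, against 11.1 to 33.9 CPM in the others.

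**Figure D1:**
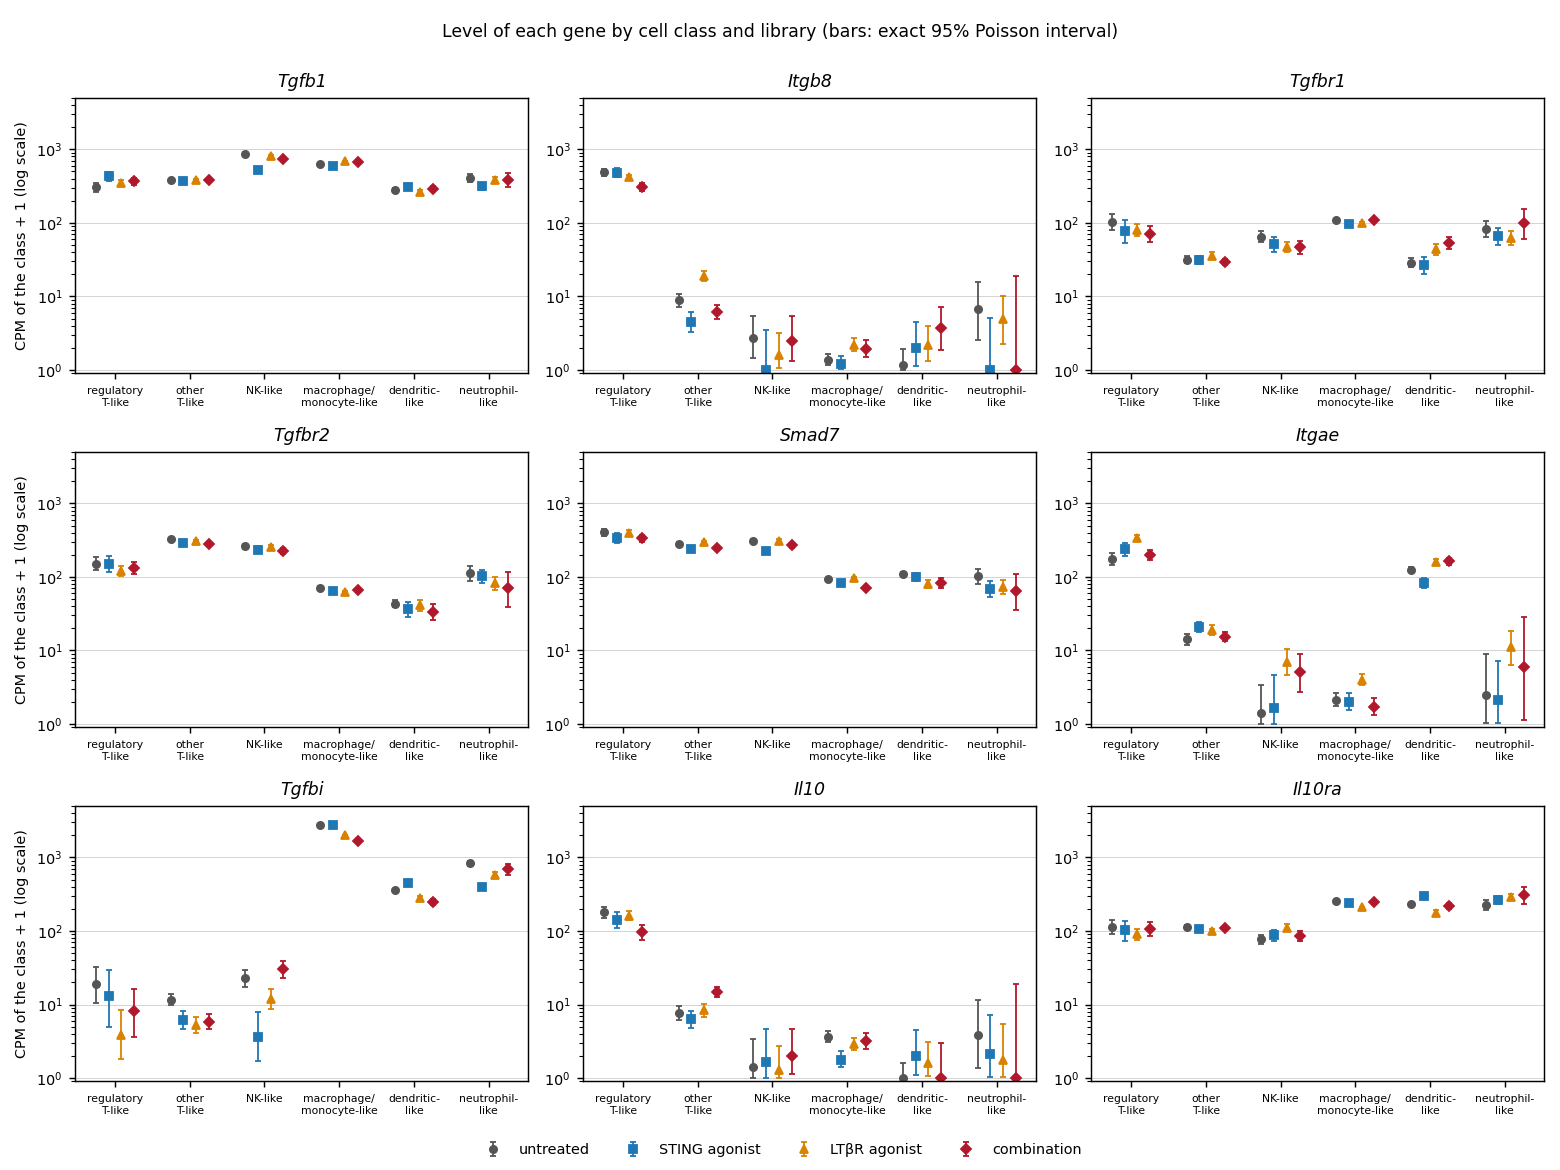
Level of each of the 9 genes (CPM of the class plus 1, log scale) in 6 classes of cells, with 1 point per library and the exact 95% Poisson interval as bars. Itgb8 and Il10 stand highest in regulatory T-like cells and Tgfbi in macrophage- or monocyte-like cells, while Tgfb1 lies between 261 and 874 CPM throughout.

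Tgfb1, the ligand (chr7:25687002-25705077, plus strand, ENSMUSG00000002603), was found in every class. Its level was 518 to 874 CPM in NK-like and 600.4 to 684 CPM in macrophage- or monocyte-like cells, and these ranges over the 4 libraries overlapped. Other T-like (375 to 388 CPM), neutrophil-like (314 to 408 CPM) and regulatory T-like cells (305 to 430.1 CPM) followed and overlapped one another, and dendritic-like cells, at 261 to 307 CPM, overlapped the lowest regulatory T-like library. Regulatory T-like cells thus did not hold the highest level of the ligand. Among macrophage- or monocyte-like clusters the pooled level ran from 344.5 CPM in cluster 6, led by Retnla and Ccl8, to 1114 CPM in cluster 3, led by Cxcl10 and Tgm2.

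Itgb8 (chr12:119158022-119238802, minus strand, ENSMUSG00000025321), the activating integrin chain, was held to regulatory T-like cells. There it stood at 485, 483, 418 and 308 CPM, and 50.9%, 55.0%, 52.6% and 47.9% of cells carried a UMI. The next class, other T-like cells, had 7.93, 3.47, 18.1 and 5.12 CPM, so the mean over libraries was 49.0-fold higher in regulatory T-like cells. In NK-like, macrophage- or monocyte-like and dendritic-like cells it lay between 0 and 2.69 CPM, and 0 of 254 NK-like cells of the STING agonist library had a UMI, which allows a share of up to 1.18% (3 counts of the total, a limit on cells with a UMI and not on cells expressing the gene). Neutrophil-like cells, which should lack it and had median depths of 1956 to 2405 UMIs against 3253 to 4253 in regulatory T-like cells, had a UMI in 0 to 0.532% of cells. Thinned to 1000 UMIs per cell, the share in regulatory T-like cells was 22.9% to 35.8%, against at most 0.476% in neutrophil-like cells.

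Partners of this chain were read for their pairing with it, outside the rule for named genes. Itgav, the αv chain, was at 1183 to 1261 CPM in regulatory T-like and 326 to 404 CPM in other T-like cells. Lrrc32 (GARP), which holds latent TGF-β on the regulatory T cell surface, was at 87.6 to 127 CPM in regulatory T-like cells and at most 4.4 CPM in any other class. The 3 parts of that release system were thus all highest in the same class, in all 4 libraries. Itgb8 was also among the 10 leading genes of the cluster, although it had been left out when the clusters were made.

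The type I receptor Tgfbr1 (chr4:47353222-47414931, plus strand, ENSMUSG00000007613) had no class that stood apart from its neighbours. It was at 94.5 to 108 CPM in macrophage- or monocyte-like, 69.9 to 103 CPM in regulatory T-like and 61.4 to 98.3 CPM in neutrophil-like cells. NK-like (45.8 to 64.3 CPM), dendritic-like (25.6 to 52.7 CPM) and other T-like cells (28.5 to 34.7 CPM) came after, and every class overlapped its neighbour in this order. Within macrophage- or monocyte-like cells, cluster 12, led by Nrg1 and Pid1, had 300.0 to 415 CPM in the 4 libraries, above the 32.6 to 256 CPM of the other 7 clusters. Cluster 12 was also the shallowest of these clusters, with a median of 3491 UMIs per cell, and the part of depth was not tested. Plasmacytoid DC-like cells, kept apart from dendritic-like cells, had 217 to 243 CPM, above all 6 classes.

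The ligand-binding receptor Tgfbr2 (chr9:116084293-116175360, minus strand, ENSMUSG00000032440) followed a different order. Other T-like cells had 279 to 329 CPM, NK-like cells 222 to 260.3 CPM and regulatory T-like cells 119 to 151 CPM, and these 3 ranges did not overlap. Neutrophil-like cells (68.8 to 111 CPM) overlapped macrophage- or monocyte-like cells (60.8 to 70.3 CPM), and dendritic-like cells were lowest at 32.8 to 42.5 CPM. Regulatory T-like cells therefore carried less Tgfbr2 RNA than other T-like cells in every library. Cells with a Cd4 UMI among other T-like cells were at 312 to 383 CPM and cells with a Cd8a or Cd8b1 UMI at 241 to 279 CPM.

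Smad7, the inhibitor (chr18:75367529-75395935, plus strand, ENSMUSG00000025880), was at 402, 339, 399 and 333 CPM in regulatory T-like cells. That range lay above NK-like (225 to 307 CPM) and other T-like cells (238 to 295 CPM), which overlapped. Dendritic-like (80.02 to 109 CPM), macrophage- or monocyte-like (70.6 to 96.2 CPM) and neutrophil-like cells (63.9 to 101 CPM) formed a lower set that overlapped throughout. Lymphoid classes thus all stood above myeloid classes.

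Itgae (chr11:73090583-73147446, plus strand, ENSMUSG00000005947) encodes CD103, an integrin chain that TGF-β induces in T cells and that marks some dendritic cells. Regulatory T-like cells had 177, 238, 335 and 200.1 CPM and dendritic-like cells 125, 82.2, 158 and 162 CPM. Other T-like cells were at 13.1 to 19.9 CPM, and the remaining classes at 0.434 to 10.2 CPM. In neutrophil-like cells, the class that should lack the gene, 0.328% to 2.13% of cells had a UMI.

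Within those classes Itgae sat in few subsets. In gamma-delta-like T cells, which carried Trdc and Tcrg-C1, it was at 152, 225, 200.1 and 146 CPM, close to regulatory T-like cells. Cells with Cd8a or Cd8b1 UMIs were at 6.12 to 11.2 CPM and cells with a Cd4 UMI at 4.72 to 9.91 CPM. In cDC1-like cells, which take up and cross-present antigen, the level was 451, 296, 523 and 635 CPM, from 53, 18, 34 and 9 cells. Mature DC-like cells had 0 to 9.04 CPM. The remaining dendritic sub-clusters differed from one another, including 3 that scored best on the cDC2 list. Of these, sub-cluster 9, led by the interferon-induced genes Cxcl10 and Ifit3, had 0 to 11.3 CPM, and sub-cluster 5, led by Hspb1 and Ifitm6, had 76.2 to 214 CPM. The last, sub-cluster 10, led by Cdh17, Ppp1r1a and Itgae itself, had 289, 258, 388 and 666 CPM. Its chain partner Itgb7, read for that pairing, was at 431 to 596 CPM in regulatory T-like cells and 102 to 149 CPM in other T-like cells.

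**Figure D2:**
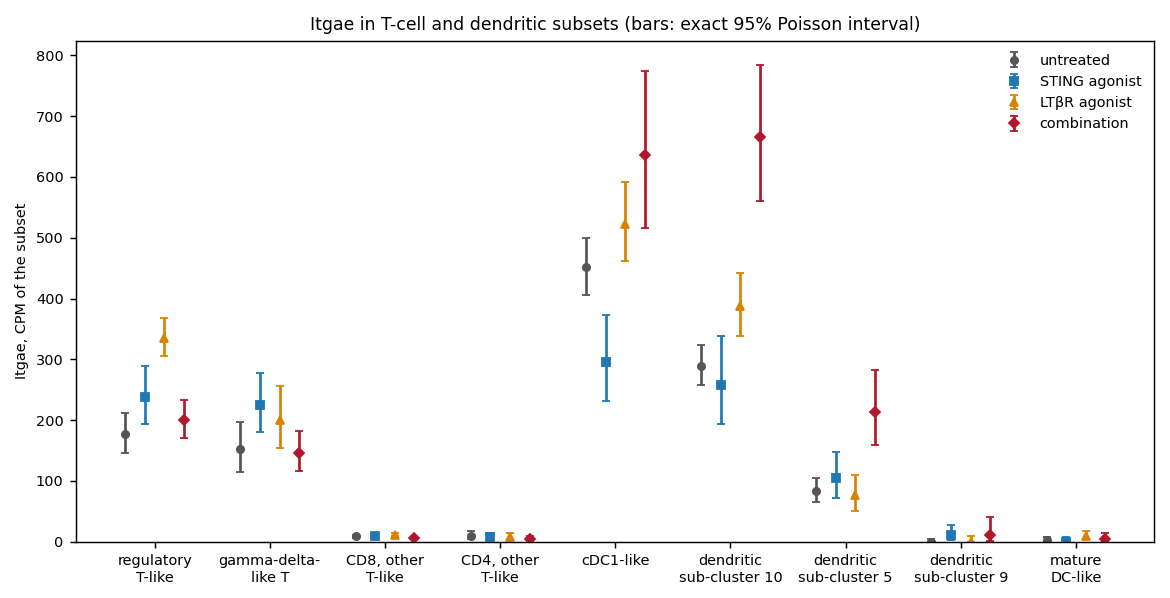
Itgae level (CPM of the subset) in T-cell and dendritic subsets, with 1 point per library and the exact 95% Poisson interval as bars. Regulatory T-like, gamma-delta-like, cDC1-like and sub-cluster 10 cells are high, while CD4, CD8, sub-cluster 9 and mature DC-like cells lie at or below 11.3 CPM.

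Tgfbi (chr13:56609523-56639562, plus strand, ENSMUSG00000035493) encodes a secreted matrix protein named for its induction by TGF-β. Macrophage- or monocyte-like cells had 2772, 2760, 2026 and 1662 CPM, and a UMI was seen in 86.9% to 97.5% of them. Neutrophil-like cells (397 to 830 CPM) and dendritic-like cells (247 to 451 CPM) overlapped, and no lymphoid class exceeded 29.2 CPM. Other T-like cells, which should lack it, had a UMI in 2.28% to 5.18% of cells at median depths of 4417 to 5089 UMIs, against 7824 to 10608 in macrophage- or monocyte-like cells. Among dendritic subsets, the unnamed sub-cluster 6, led by Slc4a11 and Spon1 and with Tgfbi among its 10 leading genes, carried 876 to 1341.5 CPM and sub-cluster 9 carried 866 to 952 CPM. By contrast, cDC1-like cells had 45.4 to 234 CPM and mature DC-like cells 20.4 to 49.5 CPM.

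Il10 (chr1:131019845-131024974, plus strand, ENSMUSG00000016529) was, like Itgb8, highest in regulatory T-like cells, at 178, 142, 161 and 94.7 CPM. It was seen in 22.4%, 21.0%, 22.2% and 19.4% of them. Other T-like cells had 6.61, 5.33, 7.32 and 13.8 CPM. The macrophage- or monocyte-like cells, a class often named as a source of IL-10, had 2.65, 0.781, 1.91 and 2.17 CPM and a UMI in 0.706% to 1.18% of cells, beside 0 to 0.877% of the shallower neutrophil-like cells. Of their clusters, cluster 6 had the highest pooled level, with 6.53, 0, 11.6 and 8.74 CPM from 5, 0, 26 and 19 UMIs. B- or plasma-like cells had 12.9, 0, 35.4 and 32.2 CPM, from 59, 15, 178 and 541 cells. In the combination library 77 of the 154 UMIs of other T-like cells came from 15 cells of T sub-cluster 8, led by Ccl5, Prf1 and Lag3. A further 40 came from 5 cells of T sub-cluster 6, led by Il5 and Il1rl1 and closest to the ILC2 marker list, in which no Il10 UMI was seen in the other libraries.

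The Il10 UMIs were unevenly spread over cells. The 10 cells with the most carried 61.9%, 76.3%, 40.7% and 66.2% of the UMIs of regulatory T-like cells. For Itgb8 the same share was 35.2%, 44.8%, 20.7% and 35.0%, in a gene seen in more cells. Cells with an Il10 UMI carried an Itgb8 UMI in 53.1% to 71.4% of cases and cells without one in 46.6% to 50.6%. Cells with an Il10 UMI were also the deeper ones, with medians of 3730 to 4426 UMIs against 3108 to 4186, and the part of depth in this was not tested.

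Il10ra, the receptor chain (chr9:45253837-45269149, minus strand, ENSMUSG00000032089), was a myeloid-weighted gene. Neutrophil-like (224 to 305 CPM), macrophage- or monocyte-like (208 to 256 CPM) and dendritic-like cells (176 to 295 CPM) overlapped and lay above the 3 lymphoid classes, which overlapped at 75.6 to 114 CPM. In dendritic sub-cluster 9 it reached 308 to 556 CPM. Gamma-delta-like T cells carried only 2.58 to 9.68 CPM, from 1 to 3 UMIs a library, against 119 to 142 CPM in cells with Cd8a or Cd8b1 UMIs. The co-receptor Il10rb, read for its pairing, was at 46.7 to 172 CPM over all classes and libraries.

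Treatment ratios were taken within a class as log2((CPM + 10)/(untreated CPM + 10)), for genes with a mean of 10 CPM and 100 UMIs over the 4 libraries of the class. All 3 ratios share the untreated library. Of 39 pairs of member and class that passed, 3 lay past 1.5-fold in the STING agonist library, 2 in the LTbR agonist library and 6 in the combination library, and 9 of these 11 were lower than untreated. In that order, 2.05%, 1.45% and 2.51% of all 39661 pairs of gene and class lay past the fold upward. Downward, 2.26%, 1.73% and 3.18% of all pairs did. Depth differs between classes, so each class is read below against the share of all its genes that lay past the same fold.

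**Figure D3:**
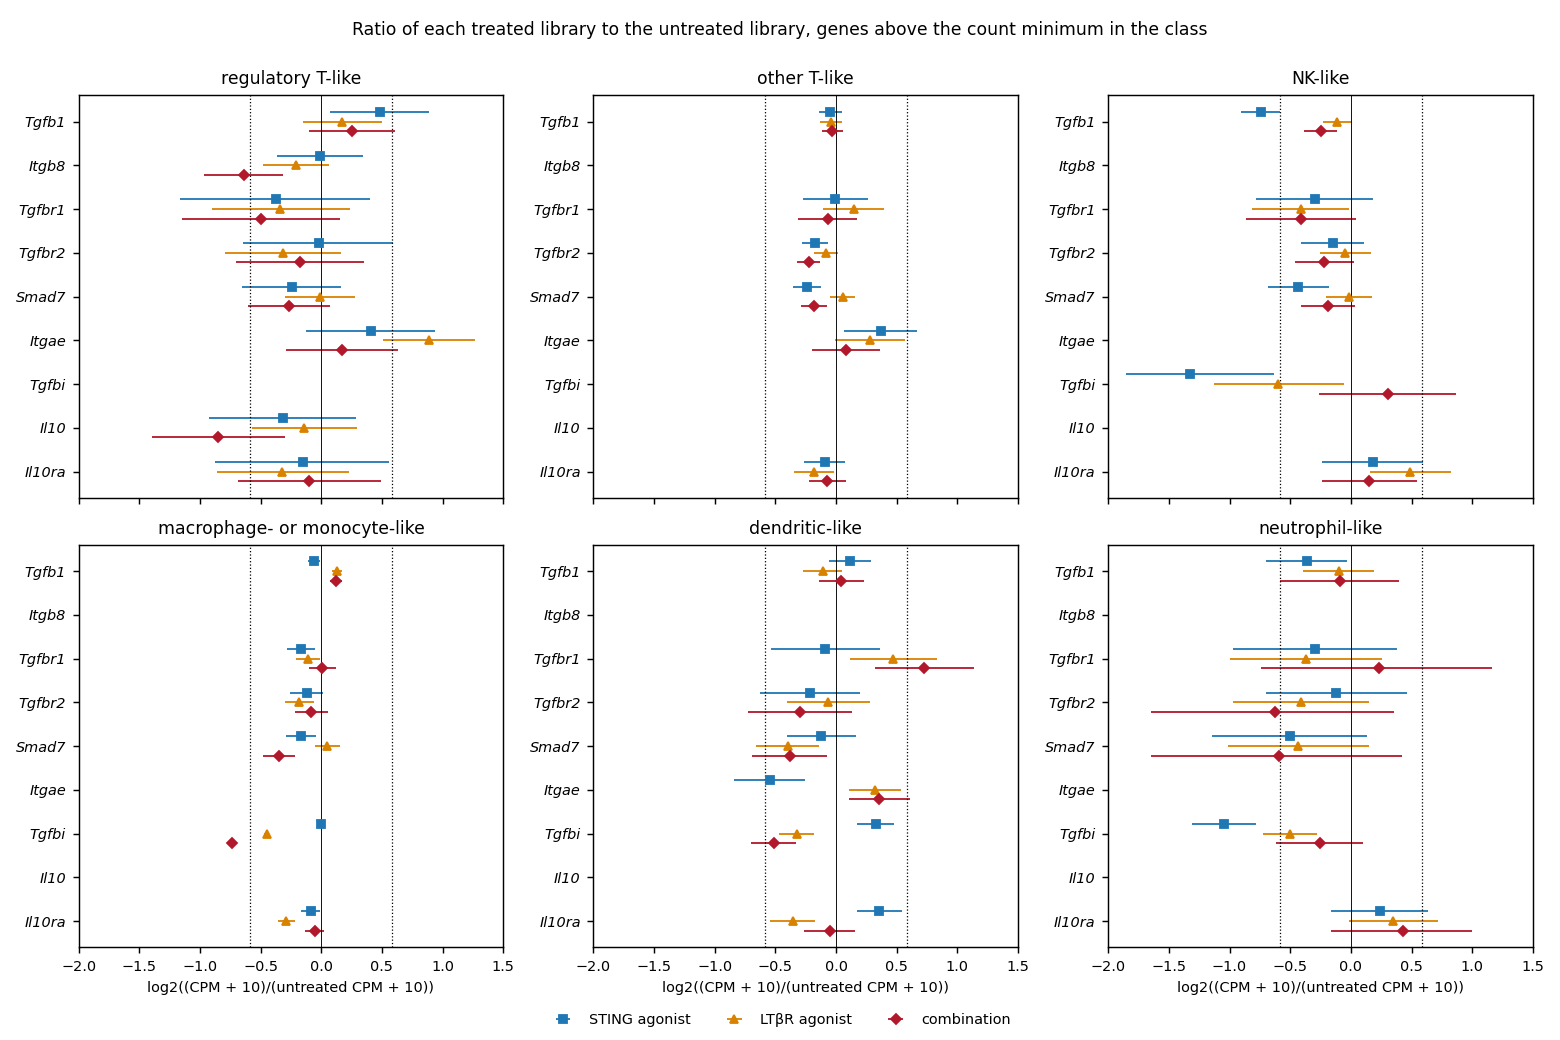
log2 ratio of each treated library to the untreated library for members above the count minimum in each of 6 classes; bars are counting intervals and dotted lines mark 1.5-fold. Most members lie between the dotted lines, with Itgae, Itgb8 and Il10 outside in regulatory T-like cells, Tgfb1 and Tgfbi in NK-like, Tgfbi in macrophage- or monocyte-like, Tgfbr1 in dendritic-like, and Tgfbi, Tgfbr2 and Smad7 in neutrophil-like cells.

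In regulatory T-like cells, 0 of 8 members lay past 1.5-fold with the STING agonist (13.1% of all genes did), 1 of 8 with the LTbR agonist (7.46%) and 2 of 8 with the combination (12.6%). The member past it with the LTbR agonist was Itgae. Its level of 335 CPM lay above all 3 other libraries, with a log2 ratio of 0.88 (0.51 to 1.27) over untreated. The share of cells with an Itgae UMI was 52.3% (46.9% to 57.7%) there, against 32.1% (25.1% to 39.8%) in untreated, 34.0% with the STING agonist and 36.4% with the combination. Thinned to 1000 UMIs the shares were 27.8% against 19.2% in untreated, 20% with the STING agonist and 17.8% with the combination, and the ratio of thinned counts was 0.51, below 1.5-fold.

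The levels of both Itgb8 and Il10 were lowest in the combination library, though for Il10 the interval overlapped that of the STING agonist library. Itgb8 had a log2 ratio to untreated of -0.64 (-0.97 to -0.31), and the STING agonist library, at -0.01, did not share it. The share of cells with an Itgb8 UMI was 47.9% to 55.0%, and the UMIs per such cell were 3.82, 3.65, 3.19 and 3.29. Neither is matched for depth, since the median UMIs per cell of the class were 3253, 3566.5, 3417 and 4253. They therefore do not show whether fewer cells or a lower level per cell underlies the ratio. Il10 had a ratio of -0.85 (-1.39 to -0.30), with 3.19, 2.81, 2.91 and 2.50 UMIs per cell that carried one. When regulatory T cells were gated by a Foxp3 UMI instead, Itgb8 was at -0.51, below 1.5-fold, and Il10 at -0.91. Against the LTbR agonist library, the combination library was lower in Itgae (-0.72, -1.06 to -0.38), Il10 (-0.70, -1.18 to -0.23) and Itgb8 (-0.43, -0.72 to -0.14). Against the STING agonist library, its ratio for Itgb8 was -0.63, past 1.5-fold. For Il10 that ratio was -0.54 (-1.18 to 0.12), inside 1.5-fold and with an interval that held both signs.

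The other counted members of these cells lay inside 1.5-fold. Tgfb1 was at 305, 430.1, 345 and 366 CPM, with ratios of 0.48 (0.07 to 0.89), 0.17 and 0.25. Tgfbr1, Tgfbr2, Smad7 and Il10ra had ratios between -0.50 and -0.01, and the interval of each crossed 0. Genes of the stress or dissociation list summed to 1794, 2970, 1770.5 and 2766 CPM in this class, so that both libraries with a STING agonist were higher. Their part in the member values was not tested.

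**Figure D4:**
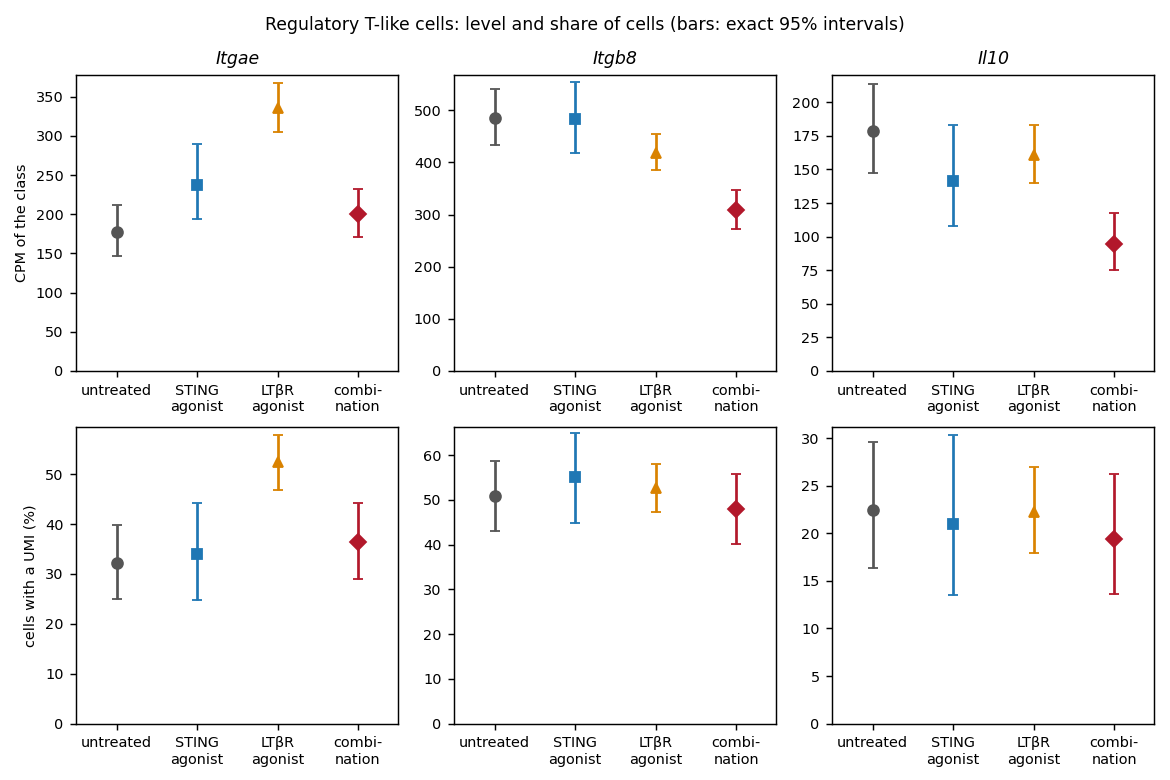
Itgae, Itgb8 and Il10 in regulatory T-like cells of the 4 libraries: CPM of the class with exact 95% Poisson intervals (top) and the percentage of cells with a UMI with exact binomial intervals (bottom). Itgae is highest with the LTbR agonist in both rows. Itgb8 and Il10 are lowest with the combination in CPM and lie closer together in the share of cells, which is not matched for depth.

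In NK-like cells the ligand Tgfb1 was at 874, 518, 808 and 735 CPM, lowest with the STING agonist, with a log2 ratio of -0.74 (-0.91 to -0.58). The intervals of the 4 levels left the STING agonist library apart from the rest. Both NK-like clusters had this order against untreated, at 495 against 855 CPM in cluster 0 and 731 against 1008 CPM in cluster 1, and the share of cells with a UMI after thinning was 33.2% against 50.6%. Smad7 was also lowest there, at 225 CPM against 268 to 307 CPM, a ratio of -0.43 (-0.69 to -0.18). Stress or dissociation genes summed to 1541, 2509, 1771.5 and 1727 CPM in this class, highest in that same library, and their part was not tested. Of 6 members counted, 2 lay past 1.5-fold with the STING agonist (3.8% of all genes), 1 with the LTbR agonist (1.03%) and 0 with the combination (2.21%).

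The second member past the fold in NK-like cells was Tgfbi, with ratios of -1.33 for the STING agonist and -0.60 for the LTbR agonist, and its values rest on few cells. Its UMIs numbered 50, 4, 36 and 58, of which the 10 top cells held 90.0%, all 4, 61.1% and 93.1%. The share of cells was 3.40%, 1.57%, 3.45% and 3.71%, within the range of other T-like cells apart from the STING agonist library, and is read as background. Itgae in NK-like cells was below the count minimum, with 1, 1, 20 and 8 UMIs in 1, 1, 11 and 4 cells.

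In macrophage- or monocyte-like cells Tgfbi was lower in both libraries with an LTbR agonist. The log2 ratio for the STING agonist was -0.01 (-0.03 to 0.02). The LTbR agonist gave -0.45 (-0.47 to -0.43) and the combination -0.73 (-0.76 to -0.71). Of 6 members counted, 0, 0 and 1 lay past 1.5-fold, beside 0.244%, 1.94% and 3.26% of all genes. After thinning to 1000 UMIs, 84.1%, 83.3%, 73.7% and 62.3% of cells had a Tgfbi UMI.

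This difference had a part within clusters and a part between them. In clusters 3, 4 and 5 the level with the combination was 2145, 2134 and 2074 CPM against 3354, 3088 and 2806 CPM in untreated. In cluster 20, led by Lyz2 and Gm9733, it was 1177 against 1084 CPM. Cluster 5, led by the complement genes C1qb and C1qc, made up 30.4% of the class in untreated, 28.9% with the STING agonist, 14.6% with the LTbR agonist and 12.3% with the combination. Cluster 6, with 569.5 to 1569.5 CPM of Tgfbi, made up 2.21%, 1.98%, 8.52% and 17.7%. Cluster 19, with 219.9 to 569 CPM, made up 1.57%, 1.55%, 6.15% and 11.4%. With the untreated cluster shares as weights the ratio was -0.49 for the combination and -0.25 for the LTbR agonist, so the former was no longer past 1.5-fold.

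**Figure D5:**
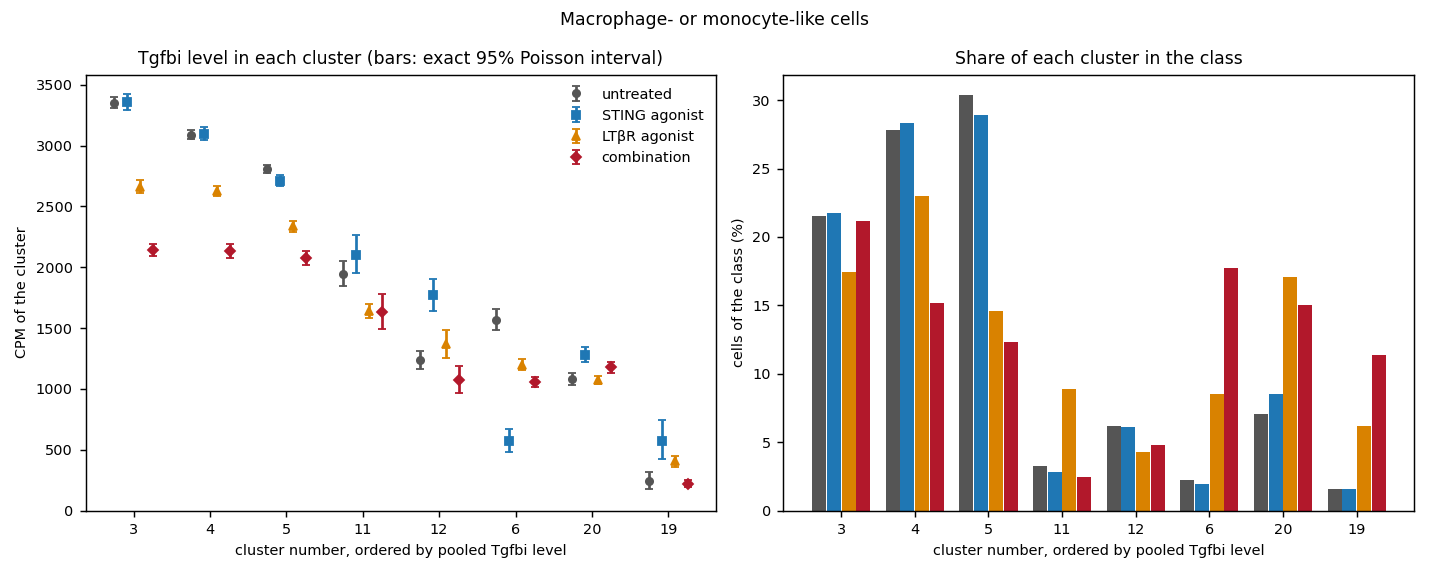
Tgfbi in the 8 macrophage- or monocyte-like clusters, ordered by pooled level: CPM with exact 95% Poisson intervals (left) and each cluster's percentage of the class (right), by library. In clusters 3, 4 and 5 the combination library is lowest, at 2074 to 2145 CPM, and clusters 6, 19 and 20 take a larger share with either LTbR agonist treatment.

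The remaining counted members of this class lay inside 1.5-fold. Tgfb1 had ratios of -0.06, 0.13 and 0.12, Tgfbr1 of -0.17, -0.11 and 0.01, and Tgfbr2 of -0.12, -0.18 and -0.08. Il10ra was lowest with the LTbR agonist, at 208 CPM against 240.3 to 256 CPM (-0.29, -0.36 to -0.22). Smad7 was lowest with the combination, at 70.6 CPM against 81.2 to 96.2 CPM (-0.35, -0.48 to -0.22).

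In dendritic-like cells, 0, 0 and 1 of 7 members lay past 1.5-fold, beside 2.18%, 2.01% and 4.12% of all genes. The one was Tgfbr1 with the combination, at 27.8, 25.6, 42.5 and 52.7 CPM and a ratio of 0.73 (0.32 to 1.13). It rested on few cells, since the ratio was 0.07 without the 10 cells with the most UMIs in each library. Mature DC-like cells carried it, at 39.3, 47.7, 62.1 and 116 CPM. Itgae was lowest with the STING agonist (-0.55, -0.84 to -0.26), and Tgfbi was lower with the combination (-0.51, -0.70 to -0.33).

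Il10ra and Tgfbi of dendritic-like cells were higher than untreated with the STING agonist and lower with the LTbR agonist. Il10ra was at 228, 295, 176 and 219 CPM, with ratios of 0.36 (0.17 to 0.54) for the STING agonist and -0.36 (-0.54 to -0.17) for the LTbR agonist. Tgfbi had ratios of 0.33 (0.17 to 0.48) and -0.33 (-0.47 to -0.18). All 4 were inside 1.5-fold. Sub-cluster 9, high in both genes, held 73 of 522, 33 of 170, 41 of 318 and 15 of 153 cells of the class. With the untreated shares of 7 of the 9 sub-clusters as weights, the ratios for the STING agonist and LTbR agonist were 0.21 and -0.34 for Il10ra, and 0.17 and -0.09 for Tgfbi.

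In neutrophil-like cells 1, 0 and 2 of 6 members lay past 1.5-fold, beside 12.1%, 10.2% and 21.2% of all genes. Tgfbi was at 830, 397, 583 and 693 CPM, but the 10 top cells of the untreated library held 68.1% of its UMIs, and the ratio for the STING agonist was -1.04 as summed and -0.38 without the top cells. Summed macrophage markers stood at 1178, 546, 781 and 1224 CPM in this class, lowest in the same library as Tgfbi, and their part was not tested. The share of cells with a Tgfbi UMI was 43.4%, 41.6%, 42.3% and 34.8%. Tgfbr2 (14 UMIs) and Smad7 (13 UMIs) of the combination library had intervals of their ratios that crossed 0. Il10ra was at 224, 266, 288 and 305 CPM.

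In other T-like cells no member of 6 lay past 1.5-fold with any treatment, beside 1.57%, 1.72% and 1.58% of all genes. Itgb8 was below the count minimum there and so not counted, with a ratio of 0.65 (0.36 to 0.93) for the LTbR agonist. Tgfb1 was at 388, 375, 377 and 379 CPM, the narrowest range, highest over lowest, of any member in these 6 classes. Tgfbr2 was slightly lower with the STING agonist (-0.17, -0.28 to -0.06) and the combination (-0.23, -0.32 to -0.13), and Smad7 likewise (-0.24 and -0.18). The make-up of the class also differed. T sub-cluster 5, with pooled levels of 769 CPM of Tgfbr2 and 505 CPM of Smad7, made up 8.50%, 8.52%, 4.84% and 2.39% of it. In the largest, sub-cluster 8, Tgfbr2 was at 255, 233, 246 and 211 CPM. The part of make-up in these ratios is not given here. In the gamma-delta-like cells among them Tgfb1 was 146 CPM (54 UMIs) in untreated and 271 to 382 CPM in the treated libraries.

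Beyond the members, a list of 69 genes of both pathways was counted by the same rule. Counts are for the STING agonist, LTbR agonist and combination in turn. In regulatory T-like cells 299, 143 and 220 of all 5107 genes were past 1.5-fold upward and 370, 238 and 425 downward. Of 39 list genes there, 4, 0 and 2 were upward and 1, 3 and 2 downward. Median ratios of the list were -0.02, -0.11 and -0.11, beside 0.00, -0.02 and -0.05 over all genes. Zfp36 and Dusp1, inhibitors of inflammatory transcripts and kinases that IL-10 induces in macrophages, were highest there with the STING agonist, at 519 against 177 CPM and 911 against 384 CPM, and with the combination (0.78 and 0.69), and both also belong to the early stress response. Smad3, which carries the TGF-β signal, was lowest with the combination (-1.03, -1.69 to -0.37). Ski, a SMAD co-repressor, was at -0.60 with the STING agonist and -0.63 with the combination. With the LTbR agonist the chemokine receptor Cxcr6 (-1.13) and Itgb3 (-0.86) were lowest.

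In NK-like cells 191, 33 and 74 of all 7799 genes lay past 1.5-fold upward and 105, 47 and 98 downward. Of 42 list genes there, 4, 0 and 0 lay upward and 3, 0 and 1 downward. Beside the low Tgfb1 of the STING agonist library, the SMAD ubiquitin ligase Smurf1 (-0.97, -1.55 to -0.38) and the TGF-β feedback gene Pmepa1 (-0.73, -1.01 to -0.46) were lowest, and Cxcr6 (1.05) and Rgs1 (0.68) highest. In macrophage- or monocyte-like cells 12, 88 and 146 of all 7385 genes lay upward and 6, 55 and 95 downward. For the list the counts were 0, 3 and 2 of 54 upward and 0, 1 and 6 downward. Thbs1, thrombospondin 1, an activator of latent TGF-β, was at 1150.1 CPM in untreated, with ratios of -1.01 (-1.05 to -0.97) for the LTbR agonist and -1.03 (-1.08 to -0.98) for the combination, and so was lower in the same 2 libraries as Tgfbi.

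In other T-like cells 79, 45 and 41 of all 8265 genes were past the fold upward and 51, 97 and 90 downward. Of 43 list genes there, 1, 1 and 0 were upward and 0, 2 and 2 downward. Furin, the protease that cuts the TGF-β precursor, was highest with the LTbR agonist (0.81, 0.63 to 1.00), and Xcl1 lowest with the combination (-0.97). In dendritic-like cells 109, 94 and 146 of all 7552 genes were upward and 56, 58 and 165 downward. Of 44 list genes there, 2, 0 and 0 were upward and 1, 2 and 3 downward. Dusp1 (0.73) was the highest of them with the STING agonist, and Il1rn (-0.88) the lowest with the LTbR agonist and Rgs1 (-0.79) with the combination. In neutrophil-like cells 123, 173 and 367 of all 3553 genes were upward and 307, 190 and 388 downward. Of 36 list genes there, 1, 0 and 2 were upward and 4, 3 and 10 downward, with Rgs1 at -2.08 for the combination. Over all 6 classes, 12, 4 and 6 of 258 were upward (4.65%, 1.55% and 2.33%), beside 2.05%, 1.45% and 2.51% of all 39661 pairs of gene and class. Downward there were 9, 11 and 24 (3.49%, 4.26% and 9.30%), beside 2.26%, 1.73% and 3.18% of all pairs. Of those 24, 10 were in neutrophil-like cells. That class holds 36 of the 258 list pairs but 3553 of the 39661 pairs of all genes, so the pooled shares weight the classes differently.

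The genes most like each member were sought over 24 pools of class and library by Pearson's correlation of log2(CPM + 10) among 8361 other genes. The pools share libraries and cell types, so these values describe which class holds a gene. Itgb8 was closest to Tnfrsf8 (0.99), Ncmap (0.99) and Nckap5 (0.99), and Il10 to Ncmap (0.99), Tnfrsf8 (0.99) and Itgb8 (0.99). Itgae was closest to Asb2 (0.97), Gpr55 and Laptm4b (both 0.94). Tgfbi was closest to Csf1r, Fcgr2b and Mpeg1 (all 0.99), genes of macrophages. Il10ra was closest to Oasl2, Gpr35 and Pira2 (all 0.97). Tgfbr2 was closest to Stk26, Ms4a4b and Kif13b (all 0.97), and Smad7 to Zdhhc15 (0.98), Prkca and 1300002E11Rik (both 0.97). Tgfb1 (Aoah 0.91, Tmem37 0.90, Gas7 0.88) and Tgfbr1 (Sypl and Akap7 0.87, Flna 0.85) had no match that close.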

How the data were processed

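The authors made 10x Genomics 5-prime libraries and counted UMIs with Cell Ranger 7.1.0 against mm10. They deposited 1 matrix of raw counts, in which the number at the end of a barcode names the library. Cells with 300 to 5000 genes and at most 6% mitochondrial UMIs were kept, the limits the study states. Counts were scaled to 10000 per cell and logged, 2000 variable genes (without the 9 members and 640 V(D)J genes) gave 30 principal components, and a graph of 20 neighbours was clustered with Leiden at resolution 1 (scanpy 1.11.5, without integration). A cluster took a name where its marker list scored best and at least 3 markers were detected, read beside its 10 leading genes. Those short of that stayed unnamed and out of the comparisons. Sub-clusters named by the list of another lineage were also left out of their class. Among T-like cells these were sub-clusters 7 and 16. Among dendritic-like cells these were sub-clusters 7, 8 and 11, named by the macrophage list, and 12, named by the T list. Dendritic sub-cluster 7 held 23, 11, 46 and 34 cells and sub-cluster 8 held 30, 19, 58 and 73. The part of this in the ratios was not tested. Doublets were kept, and a Scrublet score of 0.2 served as an alternative.

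UMIs were summed per library and class and given as CPM with exact Poisson intervals. Shares of cells have Clopper-Pearson intervals. An interval of a ratio sets each bound against the opposite bound of the other library. With 1 library per group there is no replicate error, and no test was run. The ratio was tested on simulated data. TMM factors came from edgeR 4.0.16. The members, gene lists and thresholds were chosen with earlier results of these data known. Named genes are all members, the 2 highest and 2 lowest list genes per class and treatment, and the 3 genes most like each member; partners named for their pairing fall outside this. A list gene that this rule names is not reported here. Promoter entries matched 5 of the 9 members (RefSeq, GRCm38.p6), and positions are from GENCODE M21. The methods describe 2 experiments and do not tie the libraries to either.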

Additional observations from a re-analysis of the deposited data

How the results depend on the processing

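With 13 alternatives, 117 ratios of a member to untreated gave 1404 further values, of which 1316 stayed within the counting interval and 85 moved beyond it. The other 3 turned sign, all for Tgfbi in NK-like cells with the LTbR agonist: 0.23 without the 10 cells with the most UMIs, 0.26 without cells with markers of 2 classes and 0.55 thinned to 1000 UMIs, against -0.60. Thinning moved the most, 33 values, and taking out the 10 top cells 18. Over the alternatives, Tgfb1 in NK-like cells with the STING agonist stayed past 1.5-fold in 12 of 12 (-0.99 to -0.68), Il10 in regulatory T-like cells with the combination in 11 of 12 (-0.97 to -0.45), Itgae there with the LTbR agonist in 10 of 12 (0.51 to 1.17) and Itgb8 there with the combination in 8 of 12 (-0.78 to -0.51).

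The count of members past 1.5-fold with the LTbR agonist, 2, was 6 with no filter on low counts, 0 at 2-fold, and 1 with a pseudocount of 50 CPM, with median-of-ratios size factors, without cells of high doublet score and with a standardised cluster make-up. The count with the combination, 6, was 0 at 2-fold and 2 with a pseudocount of 50 CPM. Of pathway list genes, 21 with the STING agonist became 33 with no filter and 6 at 2-fold, 15 with the LTbR agonist became 23 and 3, and 30 with the combination became 8 at 2-fold. The causes were not tested, beyond what a stricter fold or more genes do by construction. Depth limits most the neutrophil-like class of the combination library, with 203486 UMIs, and then the regulatory T-like class of the STING agonist library, with 416223. No paired analysis was possible because each group has 1 library and no result comes from a test.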
